A study of Mus musculus with 4 samples.

Results

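The PGC-1 coactivators and the nuclear factors that build mitochondria with them were followed as C2C12 cells began to differentiate. The genes were Ppargc1a, Ppargc1b and Pprc1 for the coactivators, Esrra, Nrf1 and Gabpa for the DNA-binding factors, and Tfam, Tfb1m and Tfb2m for the factors that act on mitochondrial DNA. They were chosen by name: every transcript cluster of the array (the set of probes summarised into a single value) annotated with exactly 1 gene symbol, equal to a listed name, was taken. Of the 9 genes, 8 were measured, each by 1 cluster, among 14938 clusters with a single symbol. Tfb2m is not analysed here. C2C12 is an established mouse myoblast line that leaves the cell cycle and fuses into myotubes when serum is lowered. The differentiation group was 2 arrays from cells switched at confluence to 2% horse serum and collected 24 h later. The growth group was 2 arrays from cells in medium with 10% fetal bovine serum, collected at 60 to 70% confluency. The medium was DMEM in both groups, and no transgene, drug or knockdown is given in the labels. Serum and density differ together with the condition and cannot be told apart from it. The series describes the arrays of a group as biological replicates of a single line, without saying how the cultures were separated.

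PGC-1alpha, PGC-1beta and the PGC-1-related coactivator PRC do not bind DNA themselves. They dock on transcription factors such as the nuclear receptor ERRalpha, on NRF-1 and on GABP (also called NRF-2), and recruit chromatin-modifying and transcription machinery to nuclear genes of respiration. NRF-1 and GABP in turn act on the genes of Tfam, Tfb1m and Tfb2m, whose proteins are carried into mitochondria, where TFAM packages mitochondrial DNA and TFAM and TFB2M start its transcription with the RNA polymerase POLRMT. TFB1M methylates the small ribosomal RNA of the mitochondrion. In muscle the family is known for oxidative fibres, for the response to endurance exercise and for the growth of the mitochondrial network when myoblasts become myotubes.

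The arrays held 16658 clusters, and the median intensity of an array ran from 167.8 to 177.2. Log2 intensities correlated across clusters at 0.986 between the differentiation arrays, 0.984 between the growth arrays and 0.939 to 0.951 between arrays of different groups, where clusters are not independent replicates. All 12 markers of myoblasts and myocytes were higher on each differentiation array than on either growth array, and 8 of the 12 passed the test, among them Myog (log2 change 1.38 ± 0.18 SE). Their summed intensity was 25035 and 26382 in differentiation and 13538 and 13769 in growth. Of all clusters, 30.8% were higher on the differentiation arrays in that way, and 8.64% passed the test as higher. None of the markers of other cell types was listed at 0. The 9 markers of brown and white fat summed to 941 and 833 in differentiation and 777 and 736 in growth. Of them Dio2, which muscle also uses to activate thyroid hormone, rose by 1.58 ± 0.19, Fabp4 fell (-0.80 ± 0.23), and the other 7 did not pass. They were Ucp1 (-0.25 ± 0.25), Cidea (-0.52 ± 0.25), Plin1 (-0.52 ± 0.19), Lep (-0.05 ± 0.19), Cidec (0.52 ± 0.20), Adipoq (0.42 ± 0.21) and Retn (0.34 ± 0.20). Of the 9, 4 read higher on both differentiation arrays than on either growth array and 3 lower, against 30.8% and 30.1% of all clusters. The 6 leukocyte markers summed to 342 and 386 in differentiation and 671 and 545 in growth. All 6 read lower on each differentiation array than on either growth array, as did 30.1% of all clusters. By the test 2 of them fell, as did 7.52% of all clusters. The 7 hepatocyte markers summed to 425 and 482 in differentiation and 485 and 444 in growth, with none called by limma after adjustment and 1 at an unadjusted p under 0.05. The part of these markers in the results below was not tested. In RNA from whole cultures, a change in the number of cells that express a gene and a change in its RNA per cell cannot be told apart.

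The promoters searched differ in the short DNA motifs by which these factors are known to be controlled, and the sequences that hold a match are shown so that the letters stand beside the values that follow. RefSeq windows of GRCm38.p6, 250 bases before to 50 after each gene start, were found for 8 of the 9 genes, Ppargc1b not among them. There were 9 windows in all, since Nrf1 had separate starts, and both strands were searched. The motifs were the core of the NRF-1 site (GCATGCG, reverse complement CGCATGC, which can overlap it), the ETS site bound by GABP (CCGGAAG), the core of the cAMP response element bound by CREB (TGACGT), the element of the ERR receptors (AAGGTCA) and an E-box of the MyoD type (CAGCTG). They occurred in 3.58%, 8.86%, 7.51%, 4.72% and 16.3% of all 32851 promoter windows, in that order. Capitals mark the match, on the strand of the gene.
Ppargc1a, cAMP response element core, reverse orientation, chr5:51567760-51567785, minus strand: gtgccctcccACGTCActgagctcca
Esrra, NRF-1 core, chr19:6921826-6921852, minus strand: cccctgttttGCATGCGcaggccggcc
Esrra, E-box, chr19:6921797-6921822, minus strand: cctccgctgtCAGCTGgaggaagcgg
Gabpa, NRF-1 core, chr16:84835107-84835133, plus strand: tgcactgtacGCATGCGtattctggcc
Gabpa, ETS site, reverse orientation, chr16:84835021-84835047, plus strand: agggtaagtgCTTCCGGgtccctcagc
Tfam, ETS site, chr10:71238075-71238101, minus strand: ctgccgcggaCCGGAAGtccgggcttc
Tfb2m, NRF-1 core, chr1:179546247-179546273, minus strand: taggtcgttcGCATGCGccattcgtaa
Ppargc1a was thus the only one of the 8 searched with the cAMP response element core in its window, and none held the ERR element in these letters. With that core in 7.51% of all windows, a lone match among 8 genes is near the background. The windows of Pprc1, Nrf1 and Tfb1m held none of the 5 motifs. A match is a run of letters and not a measured binding site.

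The comparison of differentiation with growth asks how these regulators stand 24 h after serum is lowered. Ppargc1a rose and was the only one of the 8 measured genes to pass the test, at an adjusted p under 0.05 over all clusters. By the same test 16.2% of the 16658 clusters passed, 8.64% higher and 7.52% lower, so 1 in 8 is near the background. The median change of the 8 genes was -0.09 on the log2 scale, against -0.01 over all clusters. At an unadjusted p under 0.05 the same test gave 1 higher and 2 lower. The share of all clusters at that unadjusted level was not counted, here or for the marker and gene lists. In 5 of the 8 no differentiation value overlapped the growth values, with 3 genes higher and 2 lower in differentiation. That was so for 60.8% of all clusters, 30.8% higher and 30.1% lower. All changes are differentiation minus growth in log2(intensity + 16), a scale on which changes of dim genes come out too small, and ± gives limma's standard error (SE) unless SD is named.

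Ppargc1a encodes PGC-1alpha, the inducible coactivator that drives the oxidative programme in muscle. Its intensity was 185.1 and 136.8 on the differentiation arrays, against 20.5 and 45.6 on the growth arrays. The lower differentiation value was thus above the higher growth value, although the arrays within each group also differed from each other. The means were 160.9 ± 34.1 in differentiation and 33.04 ± 17.7 in growth (SD, n = 2 each), a ratio of 4.87. The log2 change was 1.89 ± 0.28 SE (95% interval 1.25 to 2.53; limma adjusted p = 0.00379). The files hold no detection call, and the hepatocyte markers, genes not known to be active in myoblasts, read 34.7 to 126.5 on single arrays. The growth signal of Ppargc1a therefore cannot be told from background, and the size of the change depends on the offset, being 2.34 with an offset of 1 and 1.22 with an offset of 64. The lower differentiation value, 136.8, was only just above the range of those markers. The leukocyte markers spanned a wider range, 4.87 to 197.8 on single arrays, and both differentiation values lay within it. The differentiation signal therefore cannot be told clearly from background either. The call was lost with the offset of 1 (adjusted p = 0.0551) and without differentiation replicate 1 (change 1.69, adjusted p = 0.0615).

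Ppargc1b encodes PGC-1beta, the close relative that is known to sustain basal mitochondrial content and to work with ERRalpha. It read 282.7 and 265.5 in differentiation and 231.2 and 262.1 in growth. The groups did not overlap, but the lower differentiation value and the higher growth value were nearly equal. Its change was 0.15 ± 0.18 SE (95% interval -0.27 to 0.57; adjusted p = 0.605), so a rise above 1.48-fold on this scale lay outside the interval. It passed under none of the 13 alternatives.

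Pprc1 encodes PRC, the family member known from fibroblasts as a serum-induced growth-regulated coactivator. Its intensity was 190.9 and 230.0 in differentiation and 300.2 and 373.8 in growth. Both differentiation values were below both growth values. The change was -0.64 ± 0.20 SE and missed the threshold (95% interval -1.10 to -0.17, which is not adjusted for the number of clusters; adjusted p = 0.0677). It passed under 4 of 13 alternatives, which were quantile normalization (adjusted p = 0.0478), an offset of 64 (0.0260), leaving out the dimmest 0.25 of clusters (0.0350) and an intensity trend in the variance prior (0.0256). Over all 13 its adjusted p ran up to 0.255, and its change stayed between -0.79 and -0.49. The estimated changes of the 3 family members differed, though only that of Ppargc1a was called. The change of Ppargc1a exceeded that of Ppargc1b by 1.74 (95% interval 0.98 to 2.51) and that of Pprc1 by 2.52 (1.73 to 3.32). The change of Ppargc1b exceeded that of Pprc1 by 0.78 (0.16 to 1.41), where neither gene was called. These intervals treat the clusters as independent, were added after seeing the data and are not adjusted for the 9 pairs examined. They do not establish a split of the family.

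**Figure D1:**
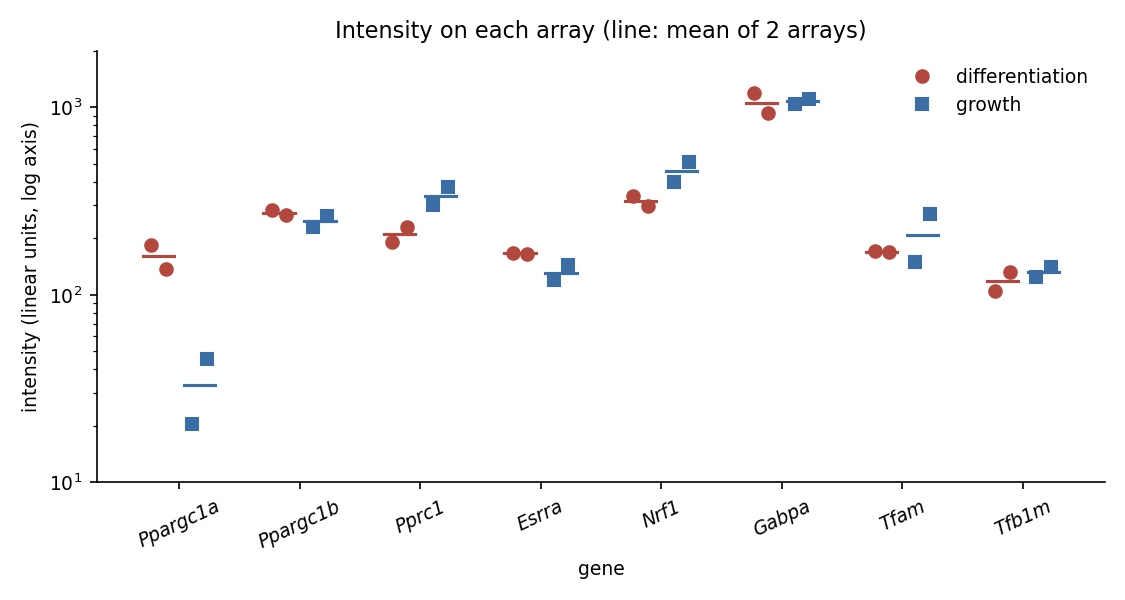
Intensity of the 8 measured genes on each array (log axis, linear intensity units), with differentiation as red circles to the left of growth as blue squares and a line at each mean of 2 arrays. Ppargc1a lies at 136.8 and 185.1 in differentiation and at 20.5 and 45.6 in growth, whereas the points of Gabpa, Tfam and Tfb1m overlap between the groups. Heights of different genes are not comparable, since each has its own probes.

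Among the DNA-binding partners, Esrra encodes ERRalpha, the orphan nuclear receptor through which PGC-1alpha reaches many genes of oxidative metabolism and which can act on its own gene. It read 168.1 and 165.1 in differentiation and 119.3 and 143.6 in growth. The differentiation arrays were close together and above both growth arrays. The growth value of 119.3 lay in the range of the hepatocyte markers. The change was 0.31 ± 0.19 SE (95% interval -0.11 to 0.74; adjusted p = 0.275), and it passed under none of the 13 alternatives. Its window, shown above, was the only one searched with both an NRF-1 core and the E-box. The share of all windows with both was not counted.

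Nrf1 encodes nuclear respiratory factor 1, which acts on the genes of cytochrome c, of respiratory subunits and of the mitochondrial transcription factors, and which is distinct from the antioxidant factor of similar abbreviation. It read 336.6 and 297.5 in differentiation, below the 400.9 and 508.8 in growth. The change was -0.49 ± 0.20 SE (95% interval -0.95 to -0.03, unadjusted; adjusted p = 0.130). It did not pass, and over the alternatives its adjusted p was 0.0571 to 0.373 and its change -0.66 to -0.33. The change of Esrra exceeded that of Nrf1 by 0.81 (95% interval 0.18 to 1.43, not adjusted).

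Gabpa encodes the DNA-binding alpha subunit of GABP, an ETS factor that works as a complex with a beta subunit. Its intensity was 1183.8 and 927.1 in differentiation and 1041.5 and 1104.6 in growth, and the growth values lay between those of differentiation. The change was -0.03 ± 0.20 SE (95% interval -0.49 to 0.42; adjusted p = 0.922). The beta subunit genes both read lower on each differentiation array. Gabpb1 read 493.8 and 542.7 in differentiation and 757.9 and 817.8 in growth, with a change of -0.59 ± 0.18 SE that missed the threshold (adjusted p = 0.0622) and passed under 4 alternatives, the same 4 settings as for Pprc1. For Gabpb2 the change was -0.39 ± 0.18 (adjusted p = 0.182).

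Of the factors that work inside mitochondria, Tfam, the packaging and transcription factor of mitochondrial DNA, read 170.4 and 168.2 in differentiation and 149.4 and 268.5 in growth. The growth arrays differed by more than any between-group gap, and they lay on either side of the differentiation values. The change was -0.23 ± 0.26 SE (95% interval -0.84 to 0.38; adjusted p = 0.575). Its sign rested on growth replicate 2, without which it was 0.16. Without growth replicate 1 it was -0.62, and it passed in neither case. Tfb1m, the ribosomal RNA methyltransferase gene, read 104.3 and 133.1 in differentiation and 124.2 and 140.5 in growth, with overlapping groups and a change of -0.15 ± 0.20 SE (95% interval -0.60 to 0.31; adjusted p = 0.633). Its change was 0.01 without differentiation replicate 1. The 104.3 in differentiation and the 124.2 in growth lay in the range of the hepatocyte markers.

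All 8 genes read higher on growth replicate 2 than on growth replicate 1, as did 59.8% of all clusters. Of the 8, 6 read higher on differentiation replicate 1 than on replicate 2, as did 52.4% of all clusters. How the authors scaled the arrays is not stated in the sources used here. Quantile normalization turned no sign, and the changes of the 8 genes under it ran from -0.67 for Pprc1 to 1.89 for Ppargc1a.

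**Figure D2:**
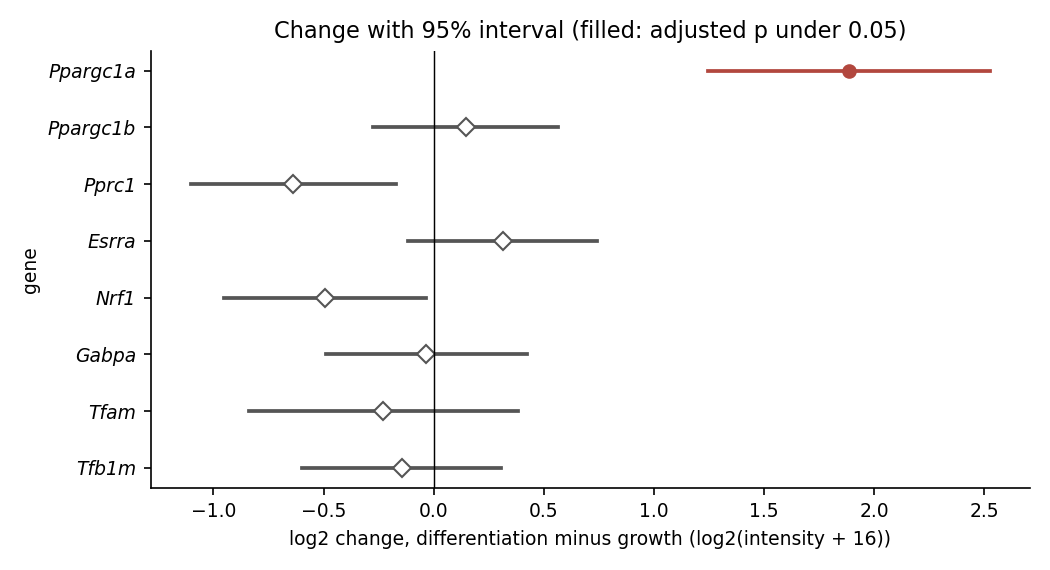
Log2 change, differentiation minus growth, of each measured gene (points) with its unadjusted 95% interval from limma (bars, 2 arrays a group). The filled point, Ppargc1a at 1.89, is the only one with an adjusted p under 0.05; the intervals of Pprc1 (-1.10 to -0.17) and Nrf1 (-0.95 to -0.03) lie below 0 before adjustment, and the other 5 span 0.

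The change of Ppargc1a exceeded that of every other measured gene of the group. The 7 differences ran from 1.57 against Esrra (95% interval 0.80 to 2.34) to 2.52 against Pprc1, with intervals above 0 in 7 of 7. Against Nrf1 the difference was 2.38 (1.59 to 3.17), against Tfam 2.11 ± 0.38 SE, against Tfb1m 2.03 (1.25 to 2.82) and against Gabpa 1.92 (1.13 to 2.70). These pairs share the estimate of Ppargc1a and are not 7 separate results. Ppargc1a was taken because it was the called gene, with the highest change of the group, so positive differences were fixed by that choice. The intervals do not allow for the choice. The growth signal of Ppargc1a may also be background, so the sizes depend on the offset. Against Esrra the difference was 1.99 with an offset of 1 and 0.97 with an offset of 64, and against Pprc1 3.01 and 1.76.

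**Figure D3:**
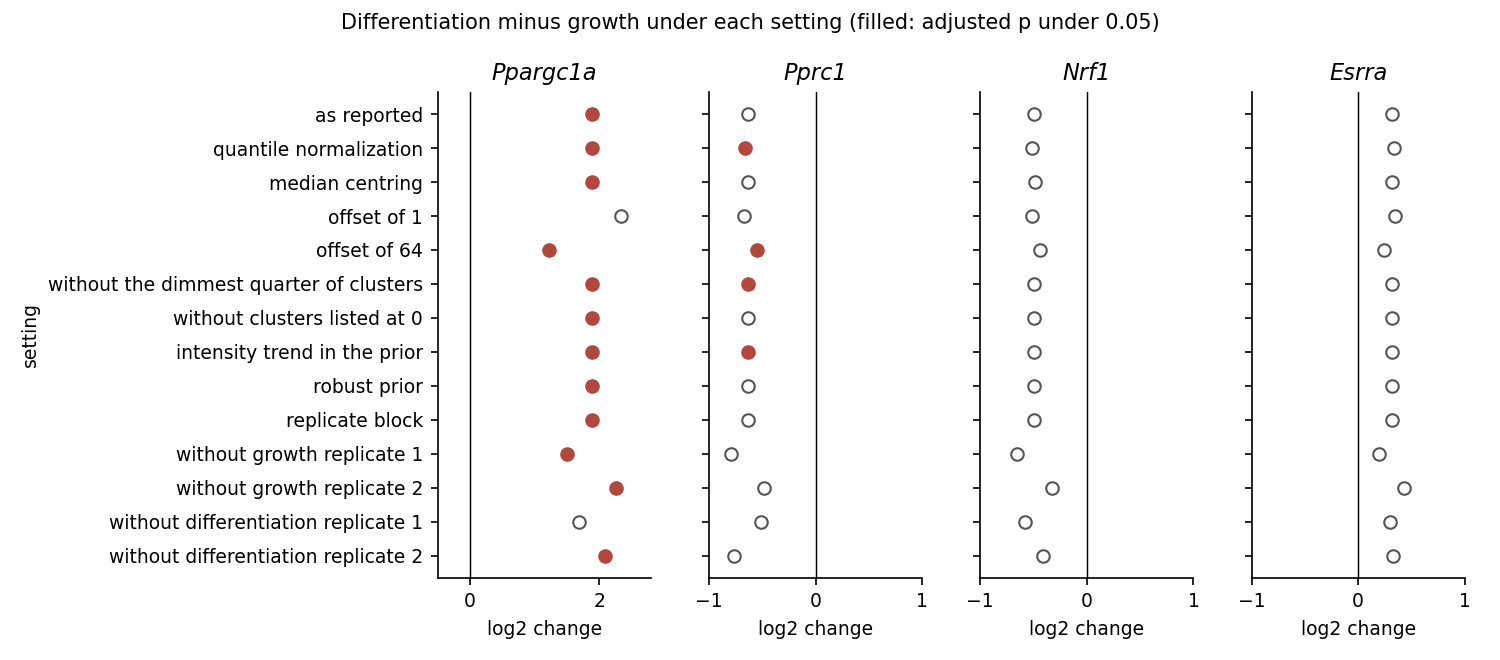
Log2 change, differentiation minus growth, of Ppargc1a, Pprc1, Nrf1 and Esrra as reported and under each of 13 alternatives (1 line each; filled points have an adjusted p under 0.05; the axis of Ppargc1a has its own range). Ppargc1a stays between 1.22 and 2.34 and passes in 11 of the 13, Pprc1 stays between -0.79 and -0.49 and passes in 4, and Nrf1 and Esrra pass in none.

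The genes whose pattern over the 4 arrays was most like that of Ppargc1a were Dnah5, Mybpc1 and Scn7a, by the distance between centred log2 values (0.11, 0.22 and 0.25). Dnah5 encodes an axonemal dynein heavy chain and read 172.1 and 134.2 in differentiation and 21.5 and 41.8 in growth. Mybpc1, the slow-muscle myosin-binding protein C gene, read 201.4 and 184.2 in differentiation and 30.3 and 62.8 in growth. Scn7a, which encodes an atypical sodium channel, read 119.7 and 77.2 in differentiation and 4.08 and 17.5 in growth. Like Ppargc1a, each was dim on the growth arrays and higher on growth replicate 2 than on replicate 1. Over 4 arrays such a likeness is a description only.

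The genes around the group were read from lists by role, as counts against the 8.64% of clusters that rose and the 7.52% that fell. Of 22 measured receptors and coregulators that partner with PGC-1 proteins, 4 rose and 1 fell, with a median change of 0.15. Ncoa1 (1.11 ± 0.20 SE) and Ncoa2 (0.71 ± 0.20), which encode p160 coactivators that PGC-1alpha recruits, rose, as did the thyroid hormone receptor gene Thra (0.99 ± 0.19) and the retinoid X receptor gene Rxra (0.64 ± 0.18). Ncoa2 (adjusted p = 0.0485) and Rxra (0.0494) passed narrowly: both lost their calls with an offset of 1, a robust prior, the replicate block or any 1 array left out, and Ncoa2 also under quantile normalization. Over these settings the adjusted p ran up to 0.213 for Ncoa2 and 0.195 for Rxra. Pparg, the receptor of fat cells with which PGC-1alpha was first found, read 233.9 and 205.0 in differentiation and 448.3 and 486.0 in growth and fell by 1.04 on the log2 scale (-1.04 ± 0.18). The other ERR receptor genes did not pass: Esrrg changed by 0.42 ± 0.19 and Esrrb by -0.53 ± 0.28, with means of 59.2 and 51.9 in differentiation and 40.6 and 81.4 in growth. No array value of either lay above the range of the hepatocyte markers, so the signals of both cannot be told from background. Of 34 measured genes whose products feed into PGC-1alpha, its gene or its modification, 6 rose and 2 fell, with a median of 0.07. Hdac4 (1.39 ± 0.18) and Hdac5 (0.96 ± 0.20), class IIa deacetylases known to hold back MEF2 factors at the Ppargc1a promoter, rose. The MEF2 genes Mef2c (0.88 ± 0.21) and Mef2d (1.07 ± 0.22) rose as well; Mef2d was dim, at 18.3 and 29.0 in differentiation and 0.59 and 5.17 in growth, and its call was lost with an offset of 1 or of 64. Crtc3, a coactivator of CREB, rose by 0.99 ± 0.20, and Prkag3, a gamma subunit gene of the kinase AMPK, by 0.94 ± 0.22. Mef2c, Mef2d and Prkag3 were named after their values were seen. The growth values of Mef2c (59.84 and 87.05) and Prkag3 (50.17 and 77.74) lay in the range of the hepatocyte markers. So did the 114.57 of Crtc3 on growth replicate 1. Kat2a, the acetyltransferase GCN5 that restrains PGC-1alpha, fell (-0.81 ± 0.18), and so did Parp1 (-0.97 ± 0.18), which encodes a consumer of the NAD that the deacetylase SIRT1 needs.

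Further lists held genes that act downstream of the group or inside mitochondria. Of 9 measured cytochrome c oxidase subunit genes none was called in either direction by limma, where 0 were higher and 2 lower at an unadjusted p under 0.05, with a median of 0.04 and changes from -0.63 for Cox7b to 0.28 for Cox6a2. Both of these were dim. Cox7b read 12.67 and 11.43 in differentiation and 23.08 and 32.48 in growth, below the range of the hepatocyte markers. Cox6a2 read 82.09 and 73.4 in differentiation and 82.08 and 44.72 in growth, within it. The list held 16 genes, and the cytochrome c gene itself and the other unmeasured genes are not analysed here. Of 28 genes known to respond to PGC-1 or ERR proteins, 3 rose and 1 fell, with a median of -0.01. Fndc5, the gene of the irisin precursor, rose by 1.00 ± 0.18 SE. Its intensity was 107.7 and 103.3 in differentiation and 43.7 and 45.8 in growth, within the range of the hepatocyte markers, and the change was 0.64 with an offset of 64. The mitochondrial desuccinylase gene Sirt5 rose by 0.85 ± 0.20 and the myoglobin gene Mb by 0.78 ± 0.21. The growth values of Sirt5 (70.62 and 94.05) and the 113.99 of Mb on growth replicate 1 also lay in the range of the hepatocyte markers. Idh3a, the citric acid cycle subunit gene, read 1134.7 and 1369.6 in differentiation and 2752.9 and 2797.5 in growth and fell (-1.14 ± 0.19). Of 21 genes of mitochondrial DNA transcription and maintenance 2 rose and 2 fell, with a median of 0.14. Primpol (0.84 ± 0.20), a primase-polymerase gene, and Tk2 (0.72 ± 0.19), the mitochondrial thymidine kinase gene, rose. Dna2, a nuclease-helicase gene that also serves nuclear replication, fell (-2.63 ± 0.21), as did the endonuclease gene Exog (-0.89 ± 0.24). Dna2 read 52.3 and 35.5 in differentiation, in the range of the hepatocyte markers, against 322.7 and 383.5 in growth, so the size of its fall depends on the offset: an offset of 64 gave -1.95. Primpol in growth (98.13 and 118.06) and Exog in differentiation (84.3 and 115.1) also read in that range. Polrmt, the polymerase that works with TFAM, changed by -0.08 ± 0.18, and Mrpl12, a ribosomal protein that binds it, by -0.48 ± 0.21, and neither passed.

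Of 25 genes of mitochondrial RNA processing and stability 5 fell and none rose (by limma 0 higher and 7 lower at an unadjusted p under 0.05), with a median of -0.15. They were Pnpt1 (-0.91 ± 0.20 SE), which encodes polynucleotide phosphorylase, the FASTK-family genes Tbrg4 (-0.91 ± 0.18), Fastkd3 (-0.75 ± 0.18) and Fastkd2 (-0.74 ± 0.18), and the pseudouridine synthase gene Pus1 (-0.78 ± 0.18). Of 23 measured genes of mitochondrial protein import, from a list of 35, 1 fell and none rose, with a median of -0.21. At an unadjusted p under 0.05 limma gave 0 higher and 4 lower. The called gene was Timm50, the receptor of the inner-membrane translocase (-1.06 ± 0.19). Of 21 genes of mitochondrial fusion and fission 2 rose and 1 fell, with a median of 0.01. Bnip3 (1.57 ± 0.19) and Pink1 (1.39 ± 0.19), both known for the removal of damaged mitochondria rather than for fusion, rose, and the fission regulator gene Mtfr2 fell (-2.97 ± 0.26). Mtfr2 read 22.8 and 50.4 in differentiation and 364.0 and 400.1 in growth, and its change was -3.45 with an offset of 1 and -2.16 with an offset of 64. Of the 30 called genes named from these lists, Bnip3, Pink1, Hdac4, Dna2 and Mtfr2 alone kept their calls under every alternative run for single genes. Without differentiation replicate 1, 25 of the 30 lost theirs, without differentiation replicate 2, 22 did, without growth replicate 1, 16 did and without growth replicate 2, 7 did.

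**Figure D4:**
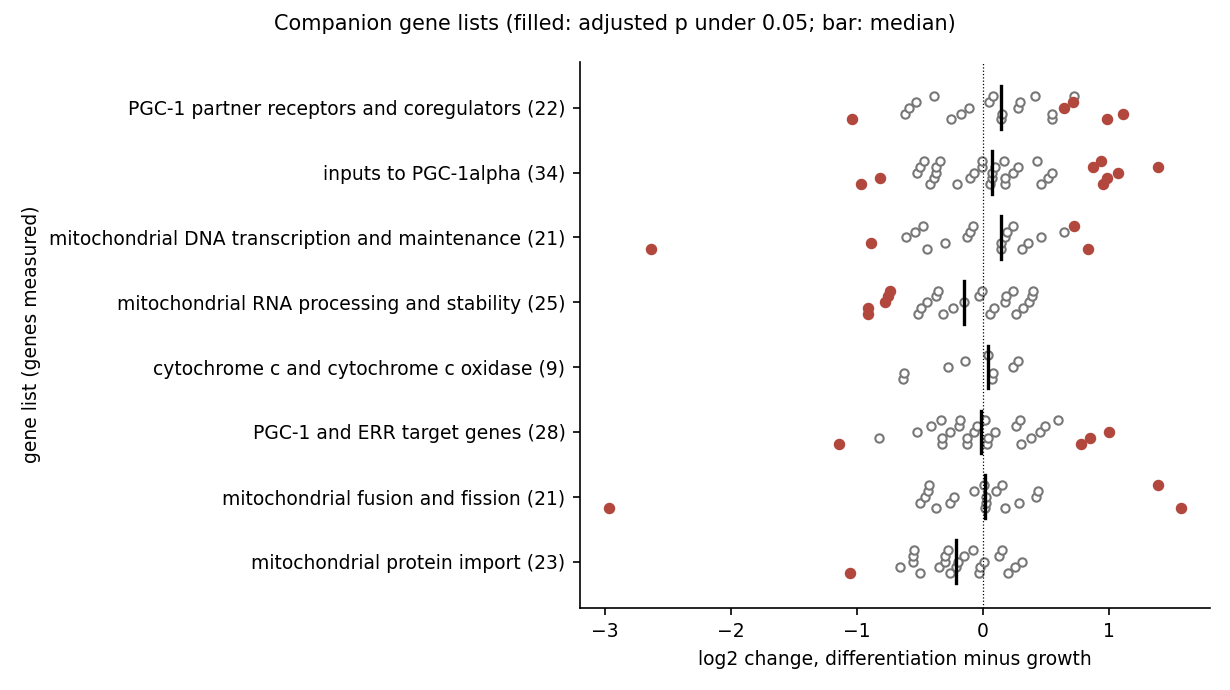
Log2 change, differentiation minus growth, of each measured gene on the 8 companion lists (1 point a gene, filled where the adjusted p is under 0.05; black bar at the list median). The medians lie between -0.21 and 0.15, with filled points on both sides of 0 in 5 lists, below 0 only in the RNA processing and import lists, and none in the cytochrome c oxidase list.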

How the data were processed

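Total RNA was hybridised to mouse exon arrays. The deposited table holds linear intensity values that the authors summarised per transcript cluster with PLIER on mm9, per the submitters' processing notes; its version, background correction and scaling between arrays were not given in the sources used here. Symbols came from the platform annotation, and Entrez identifiers matched 14883 of 14938 single-symbol clusters in RefSeq (GRCm38.p6). For lists the brightest cluster of a gene was used. Values were transformed as log2(intensity + 16), unfiltered, and groups (from titles) compared by limma 3.58.1 under R 4.3.3 (lmFit and eBayes, two-sided; Benjamini-Hochberg over 16658 clusters, threshold 0.05). An exact permutation of 2 against 2 arrays cannot go below p = 0.333 and was not used. The number of arrays limits the precision. Intervals between genes combined limma standard errors and were added after seeing the data. Named were all measured members, up to 4 called genes per list by adjusted p, every gene of a count of 5 or fewer per direction, 6 partner genes, and the 3 nearest patterns of each called member. Alternatives covered normalization, offset, dim clusters, variance prior, replicate block, arrays left out and the mean over a gene's clusters. Members and lists were chosen with earlier results of these data known.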

Additional observations from a re-analysis of the deposited data

How the results depend on the processing

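Ppargc1a kept its direction under all 13 alternatives and Pprc1, Nrf1, Esrra and Ppargc1b kept theirs; uncalled Gabpa, Tfam and Tfb1m changed sign in 2, 1 and 1 with an array left out. No called result reversed. The same-numbered arrays did not deviate together over the clusters (correlation -0.04 of their deviations). The labels do not say whether they shared a culture or a day, and this correlation cannot show it. With the replicate block 1369 clusters were higher and 1195 lower, against 1439 and 1252 without it. Ppargc1a then had an adjusted p of 0.00249, and 2 PGC-1 and ERR target genes fell. With an offset of 1, 528 clusters were higher and 622 lower and 0 of the 8 genes rose; 1 partner gene rose, 1 and 0 input genes rose and fell, 0 and 1 mitochondrial DNA genes rose and fell, 0 RNA processing genes fell and 1 target gene rose. With an offset of 64, 2201 clusters were higher, and 1 of the 8 (Pprc1), 2 partner, 5 input, 4 mitochondrial DNA, 3 target, 4 fusion and fission and 4 import genes fell. With an intensity trend in the prior, 2415 clusters were higher and 1947 lower; 1 of the 8 (Pprc1), 2 partner, 7 input, 6 target, 4 fusion and fission and 4 import genes fell, and 5 target and 4 fusion and fission genes rose. With quantile normalization 1 of the 8 (Pprc1) and 2 partner genes fell. Without the dimmest 0.25 of clusters 1 of the 8 (Pprc1), 2 partner, 1 cytochrome c oxidase, 3 target and 4 import genes fell. With a robust prior 2 partner genes rose. Without clusters listed at 0, and with the mean over a gene's clusters, 2 target genes fell. With arrays left out singly the ranges were 305 to 1189 clusters higher and 446 to 839 lower, 0 to 1 of the 8 genes higher, 0 to 2 partner genes higher and 0 to 1 lower, 1 to 6 input genes higher and 0 to 2 lower, 0 to 1 mitochondrial DNA genes higher and 1 to 2 lower, 0 to 2 RNA processing genes lower, 0 to 4 target genes higher and 0 to 2 lower, and 0 to 1 import genes lower. The lone array of a group was then assumed to vary like the other group. Fewer arrays and fewer clusters account for part of these shifts by construction; otherwise the cause was not tested. With no detection call, dim values cannot be told from background.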
